A study of Mus musculus with 12 samples.

Results

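Pknox1, Rasa1, Nfat5 and Pparg are 4 mouse genes tied to microRNA-223 (miR-223) in macrophages. Pknox1, Rasa1 and Nfat5 are reported targets of miR-223 in macrophage polarization, and Pparg is a reported driver of miR-223. Each had 1 transcript cluster, the array's unit for a gene, carrying its symbol alone. That makes 4 of 41345 clusters and 4 of the 14611 genes tested. They were chosen from earlier reports of their link to miR-223, by name and with no threshold on a signal, but with the group differences of these arrays already known. Their differences between groups are therefore given as descriptions.

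The arrays hold RNA of RAW 264.7 cells, a macrophage-like mouse line that grows attached and was made with the Abelson leukaemia virus. There were 4 arrays of cells given pre-miR-223, an added source of miR-223, 4 of cells given anti-miR-223, an inhibitor of it, and 4 of cells given an irrelevant scramble control. All were collected 48 h after transfection, and no polarizing stimulus is named in the labels. The groups are called Pre-miR-223, Anti-miR-223 and Scramble. The arrays are titled as biological replicates of 1 cell line, with nothing said of separate passages or transfections, so intervals and p-values measure only the spread between these arrays. Values are log2 signals, and a difference of 1 is a doubling. Levels of different genes are not compared, because probes differ in brightness.

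One array, Anti-miR-223 replicate 4, was unlike the others. Its correlations with them had a median of 0.967, and 629 tested genes lay over 2-fold from their 12-array mean, against at most 37 genes on any other array. The members' differences are therefore given with and without it, as are counts and differences that it moved. The Mir223 gene shares its cluster with another symbol, and whether either oligonucleotide acted on miR-223 was not checked. No gene was called in any of the 3 comparisons at a limma Benjamini-Hochberg adjusted p under 0.05. The share called was 0.0% for Pre-miR-223 against Scramble, 0.0% for Anti-miR-223 against Scramble and 0.0% for Pre-miR-223 against Anti-miR-223. At an unadjusted limma p under 0.05, 711 genes (4.87%), 294 genes (2.01%) and 528 genes (3.61%) passed in those comparisons, and 1371, 978 and 714 without that array. An ordinary linear model gave 706, 368 and 530 genes at that level and also called 0.

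A microRNA guides the silencing machinery to messenger RNAs that pair with its seed, the stretch near its 5′ end, and lowers their translation or stability. miR-223 is abundant in myeloid cells, where it restrains inflammatory activation. Pknox1 encodes PREP1, a homeodomain protein that partners PBX proteins. Rasa1 encodes p120 RasGAP, which switches Ras off. Nfat5 encodes TonEBP, the transcription factor of the osmotic stress response, which also acts at inflammatory genes. Pparg encodes a lipid-sensing nuclear receptor that works with RXR and favours alternative activation of macrophages.

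The mature sequences from RefSeq (GRCm38.p6) are shown because the seed defines which messages miR-223 can pair with. Capitals mark bases 2 to 8.
mmu-miR-223-3p: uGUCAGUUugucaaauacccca
mmu-miR-223-5p: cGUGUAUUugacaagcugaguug
mmu-miR-344f-5p: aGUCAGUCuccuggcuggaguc
The 3p strand is the arm usually called miR-223, at chrX:96242884-96242905 on the plus strand, and the 5p strand is its partner arm at chrX:96242842-96242864. Of 1679 mature mouse miRNAs in the table, 1, miR-223-3p itself, had this 3p seed. With bases 2 to 7 alone there were 2, the other being miR-344f-5p, shown for that reason. The letters AACUGAC are the complement of the 3p seed that a target message would carry. The 3′ UTRs of the 3 reported targets were not analysed here.

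Pknox1 had the lowest mean in Pre-miR-223 arrays. Its log2 signal was 3.98, 4.03, 3.73 and 3.77 in Pre-miR-223 cells, 4.01, 4.33, 4.16 and 4.75 in Anti-miR-223 cells, and 3.92, 4.42, 3.91 and 4.16 in Scramble cells. The means were 3.88 ± 0.15, 4.31 ± 0.32 and 4.10 ± 0.24 for Pre-miR-223, Anti-miR-223 and Scramble (SD, n = 4 each). Groups overlapped in all 3 comparisons, and 3 of 4 Pre-miR-223 arrays lay below every Anti-miR-223 array.

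Against Scramble, Pknox1 differed by -0.23 in Pre-miR-223 cells (95% interval -0.57 to 0.12) and by 0.21 in Anti-miR-223 cells (-0.13 to 0.55). Both intervals span 0. The 2 treatments differed by -0.44 in Pre-miR-223 over Anti-miR-223 cells (-0.78 to -0.09), 0.739 of the Anti-miR-223 level on the linear scale. The limma adjusted p of that difference was 0.946 over 14611 genes, and 0.842% of genes had a smaller p. Against Scramble that share was 19.5% for Pre-miR-223 and 13.5% for Anti-miR-223. An exact permutation test between the treatments gave p 0.057. Without Anti-miR-223 replicate 4 the treatments differed by -0.29 (-0.58 to -0.00), with exact permutation p 0.086, and 4.86% of genes had a smaller limma p. Anti-miR-223 against Scramble was then 0.07 (-0.23 to 0.36). Pre-miR-223 against Scramble stayed at -0.23, with a narrower interval of -0.50 to 0.04 that still spans 0.

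**Figure D1:**
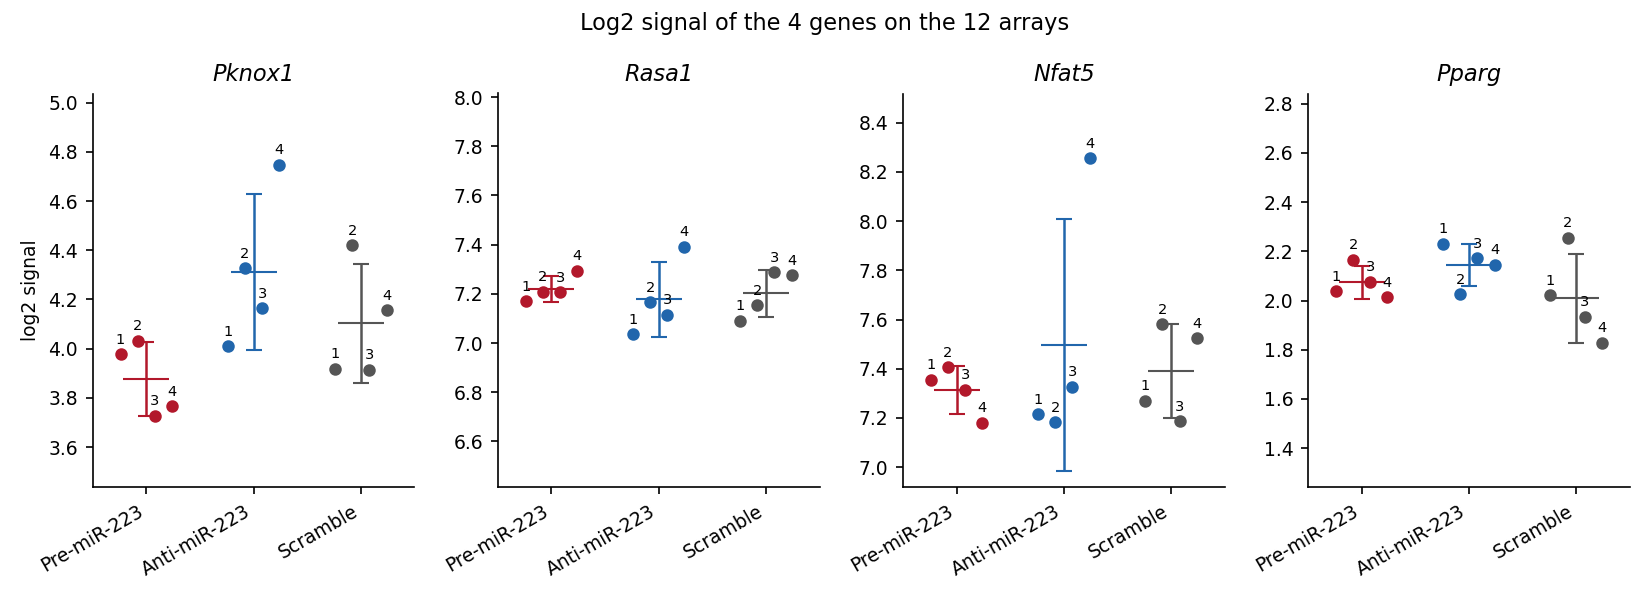
Log2 signal of Pknox1, Rasa1, Nfat5 and Pparg on the 12 arrays, 1 point per array labelled with its replicate number, with mean and SD bars for Pre-miR-223, Anti-miR-223 and Scramble. Every panel spans the same height; Anti-miR-223 replicate 4 is the highest array for Pknox1 (4.75), Rasa1 (7.39) and Nfat5 (8.26).

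Rasa1 had nearly the same signal in the 3 groups. Its log2 signal was 7.17, 7.21, 7.21 and 7.29 in Pre-miR-223 cells, 7.04, 7.17, 7.12 and 7.39 in Anti-miR-223 cells, and 7.09, 7.15, 7.29 and 7.28 in Scramble cells. The means were 7.22 ± 0.05, 7.18 ± 0.15 and 7.20 ± 0.10 for Pre-miR-223, Anti-miR-223 and Scramble (SD, n = 4 each). All 3 groups overlapped.

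Rasa1 differed from Scramble by 0.02 in Pre-miR-223 cells (-0.20 to 0.23) and by -0.02 in Anti-miR-223 cells (-0.24 to 0.19). Pre-miR-223 over Anti-miR-223 was 0.04 (-0.17 to 0.26). Without Anti-miR-223 replicate 4 this last value was 0.11 (-0.09 to 0.32), and the groups no longer overlapped, with all 4 Pre-miR-223 arrays above the 3 Anti-miR-223 arrays. Groups that did not overlap made up 1.67% of genes in that comparison on 12 arrays and 4.84% without that array. Anti-miR-223 against Scramble was -0.10 (-0.30 to 0.11) without it. The interval of Pre-miR-223 against Scramble was then -0.17 to 0.21.

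Nfat5 was the member most marked by 1 array. Its log2 signal was 7.35, 7.41, 7.31 and 7.18 in Pre-miR-223 cells, 7.21, 7.18, 7.33 and 8.26 in Anti-miR-223 cells, and 7.27, 7.58, 7.19 and 7.52 in Scramble cells. The means were 7.31 ± 0.10, 7.50 ± 0.51 and 7.39 ± 0.19 for Pre-miR-223, Anti-miR-223 and Scramble (SD, n = 4 each). Without replicate 4 the Anti-miR-223 mean was 7.24 ± 0.08 (SD, n = 3), the lowest of the 3 groups in place of the highest.

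Nfat5 differed from Scramble by -0.08 in Pre-miR-223 cells (-0.50 to 0.35) and by 0.11 in Anti-miR-223 cells (-0.32 to 0.53). The second value was -0.15 (-0.39 to 0.10) without Anti-miR-223 replicate 4, so its sign turned. Pre-miR-223 over Anti-miR-223 was -0.18 (-0.61 to 0.24), and 0.07 (-0.17 to 0.32) without that array. The interval of Pre-miR-223 against Scramble narrowed to -0.30 to 0.15 without it. The sign of the Pre-miR-223 difference from Scramble also turned, to 0.04, under cyclic loess scaling.

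Pparg, the reported driver, lay close to the lowest level tested. Its log2 signal was 2.04, 2.17, 2.08 and 2.01 in Pre-miR-223 cells, 2.23, 2.03, 2.17 and 2.15 in Anti-miR-223 cells, and 2.02, 2.25, 1.93 and 1.83 in Scramble cells. Its 12-array mean was only 0.07 above the required log2 2.01. The means were 2.07 ± 0.07, 2.14 ± 0.09 and 2.01 ± 0.18 for Pre-miR-223, Anti-miR-223 and Scramble (SD, n = 4 each), with all groups overlapping. It differed from Scramble by 0.06 in Pre-miR-223 cells (-0.16 to 0.29) and by 0.13 in Anti-miR-223 cells (-0.09 to 0.36), and Pre-miR-223 over Anti-miR-223 was -0.07 (-0.30 to 0.15). Leaving out Anti-miR-223 replicate 4 left these at 0.06, 0.13 and -0.07.

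**Figure D2:**
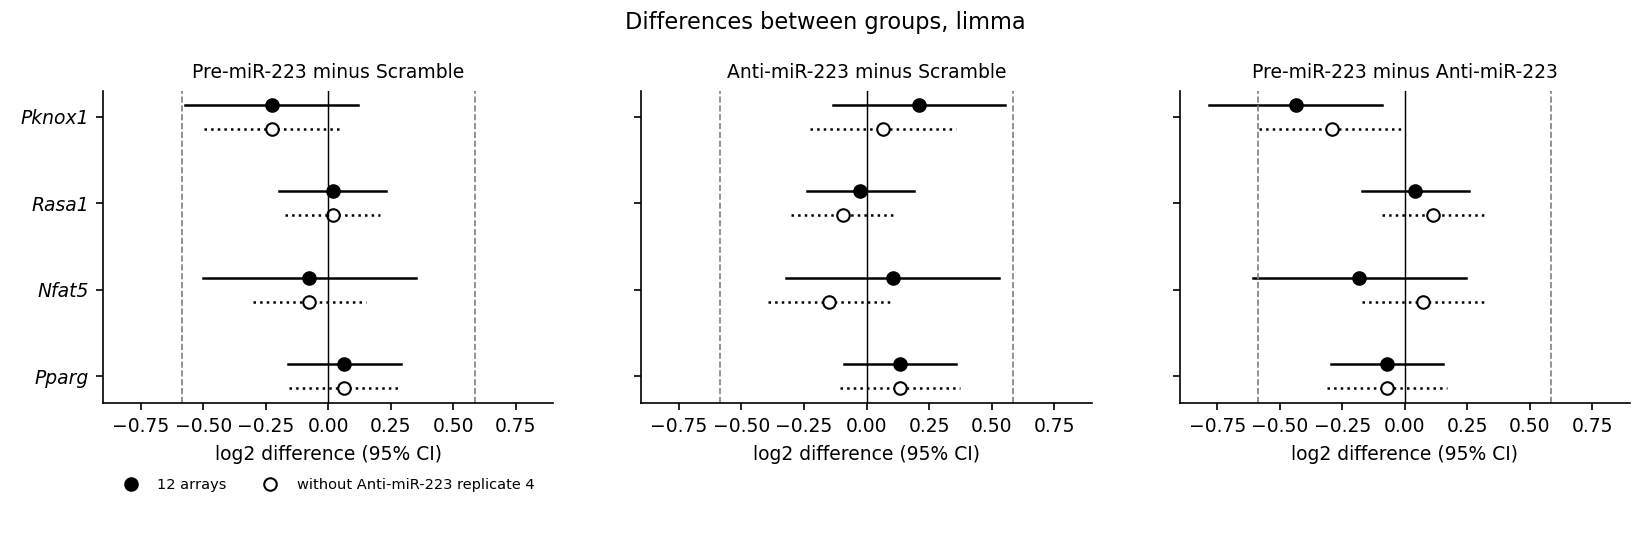
Log2 differences of the 4 genes in the 3 comparisons with 95% limma intervals, on 12 arrays (filled, solid) and without Anti-miR-223 replicate 4 (open, dotted); dashed lines mark 1.5-fold. Pknox1 in Pre-miR-223 over Anti-miR-223 is the one 12-array interval that does not span 0, and Nfat5 changes side in both comparisons that use Anti-miR-223.

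The intervals limit how large a change in signal these arrays could have hidden. Against Scramble, a change of 1.5-fold in either direction lay outside the 12-array interval of all 4 genes, for both treatments. Pknox1 in Pre-miR-223 cells came close, with a lower end of -0.571 where 1.5-fold is 0.585 in log2. That end was -0.496 without Anti-miR-223 replicate 4. Pparg lay only 0.07 above the level filter, so its interval bounds the signal, and a change in its RNA was not tested. Between the treatments, a 1.5-fold lower signal in Pre-miR-223 cells lay inside the interval of Pknox1 and of Nfat5. Without Anti-miR-223 replicate 4 it lay outside both, with lower ends of -0.583 for Pknox1 and -0.173 for Nfat5. No member's groups failed to overlap on 12 arrays. Across all genes tested this occurred in 2.98% for Pre-miR-223 against Scramble and 1.55% for Anti-miR-223 against Scramble, the second being 6.55% without Anti-miR-223 replicate 4.

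The members also differed in how much arrays of 1 group varied. The residual SD was 0.246 for Pknox1, 0.108 for Rasa1, 0.320 for Nfat5 and 0.122 for Pparg, against a median of 0.194 over all genes tested. Rasa1 was the steadiest, with 7.62% of genes below it, and on 12 arrays Nfat5 was the most variable, with 87.6% below it. Without Anti-miR-223 replicate 4 the SD of Nfat5 was 0.136, with 28.6% of genes below it, and Pknox1 was the most variable member at 0.191, with 64.2% below it.

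**Figure D3:**
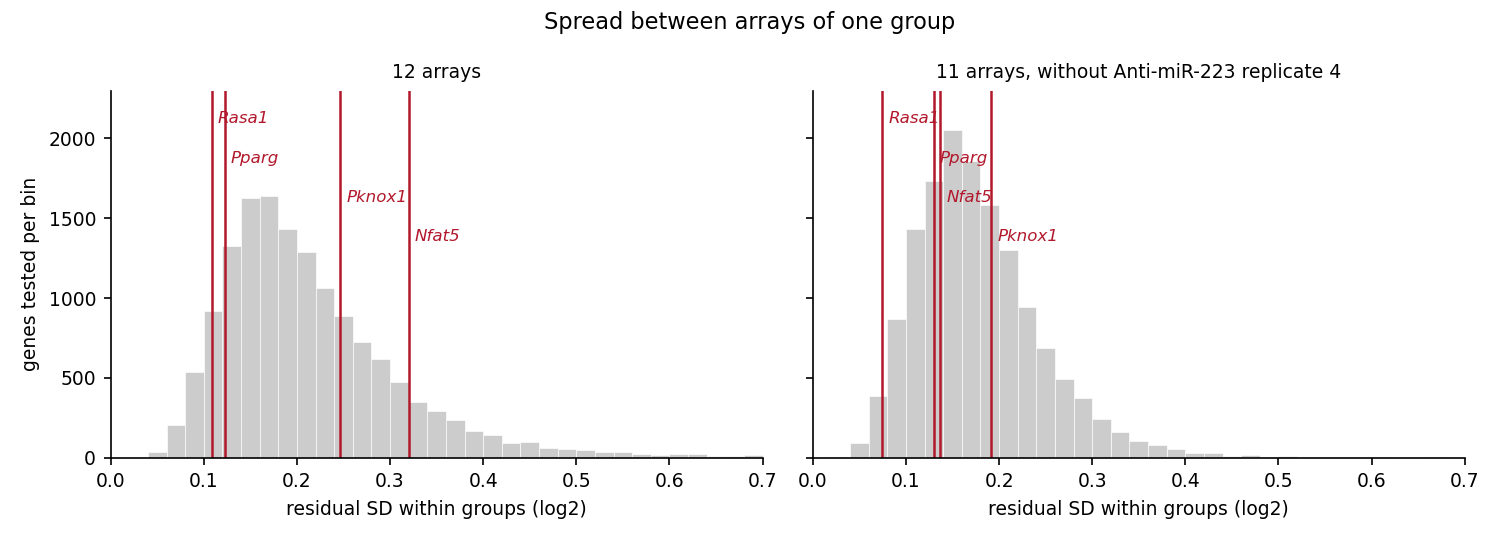
Number of tested genes by residual SD within groups (log2, bins of 0.02), on 12 arrays and on 11 arrays without Anti-miR-223 replicate 4, with a line for each of the 4 genes. Nfat5 lies at 0.320 in the left panel and at 0.136 in the right.

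Among the 6 pairs of members, Pknox1 and Nfat5 varied together most. Their Pearson r over the 12 arrays was 0.789 (permutation p 0.0052, adjusted 0.0314) and Spearman's rho 0.594 (adjusted permutation p 0.270). Without the 2 arrays farthest from the median of Pknox1, which were Scramble replicate 2 and Anti-miR-223 replicate 4, r was 0.205, and without Anti-miR-223 replicate 4 alone it was 0.499, so the relation rests on those arrays. For Pknox1 and Rasa1 r was 0.277 on 12 arrays and -0.269 without Anti-miR-223 replicate 4. The other pairs had r of 0.562 (Rasa1 and Nfat5), -0.410 (Rasa1 and Pparg), 0.315 (Pknox1 and Pparg) and 0.220 (Nfat5 and Pparg), none passing adjustment.

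Other genes followed single members more closely, by the lower of r on 12 arrays and r without Anti-miR-223 replicate 4. For Pknox1 these were Atf7, a CRE-binding transcription factor, with r of 0.965 and 0.936, Rbbp9 with 0.920 and 0.944, and Ctps2, a CTP synthase, with 0.927 and 0.895. For Nfat5 they were Il6ra, the interleukin-6 receptor, with 0.978 and 0.921, Xpr1, a phosphate exporter, with 0.976 and 0.907, and Spcs3, a signal peptidase subunit, with 0.967 and 0.906. For Rasa1 they were Marchf8, a ubiquitin ligase, with 0.905 and 0.863, the scavenger receptor Cd36 with 0.855 and 0.889, and the phosphodiesterase Pde7a with 0.886 and 0.854. For Pparg they were the histone demethylase Kdm4b with 0.897 and 0.903, Gtf2ird1 with 0.873 and 0.889, and the ribosomal protein gene Rplp2 with 0.815 and 0.850. These are the closest of 14611 genes over few arrays that share treatments, and serve as a description. Within every group, Rasa1, Marchf8 and Cd36 were each lowest on replicate 1.

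**Figure D4:**
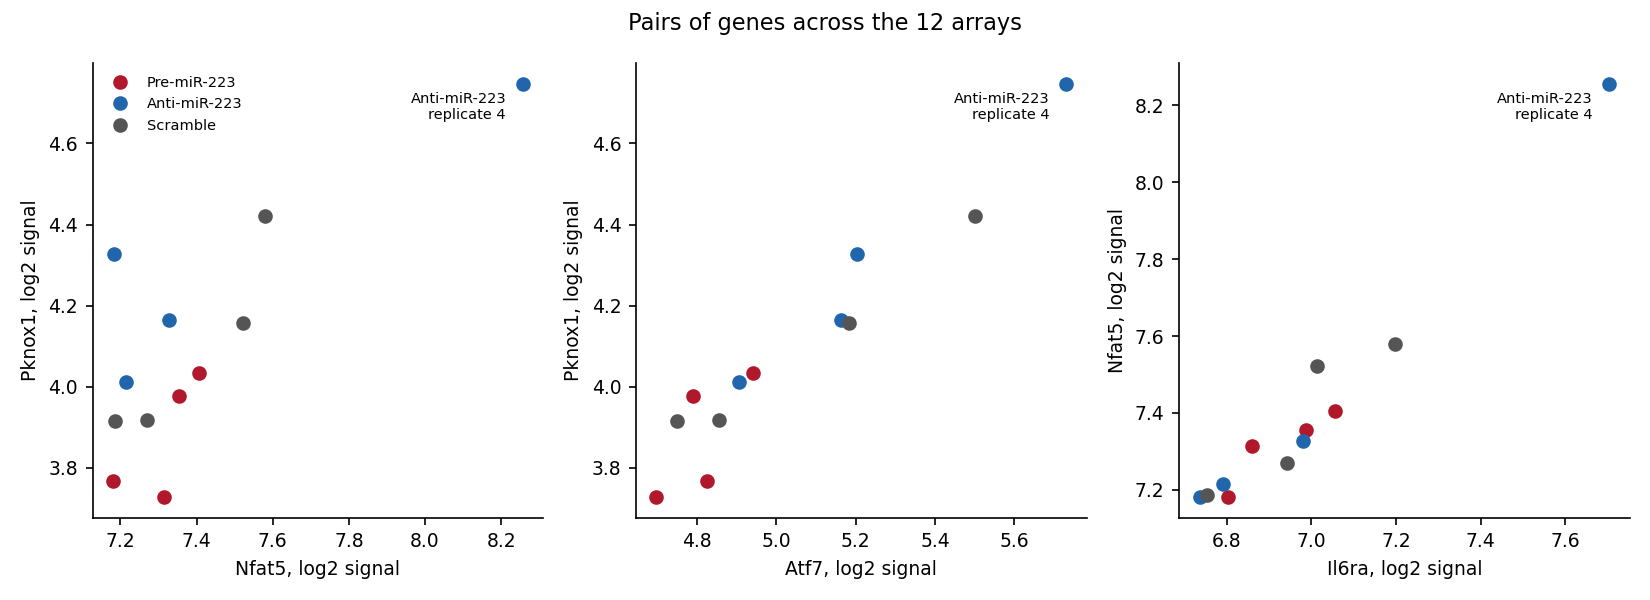
Log2 signals on the 12 arrays of Pknox1 against Nfat5, Pknox1 against Atf7 and Nfat5 against Il6ra, coloured by group. Pknox1 and Nfat5 (r = 0.789) are drawn out by Anti-miR-223 replicate 4, while Pknox1 and Atf7 keep r = 0.936 without it.

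The partners and pathways of the members were described by lists. Over all genes tested, 5086 were higher and 9525 lower in Pre-miR-223 than in Scramble cells, with a median difference of -0.05, and 6946 were higher and 7665 lower in Anti-miR-223 than in Scramble cells, with a median of -0.01. Without Anti-miR-223 replicate 4 the second pair was 5317 and 9294, with a median of -0.05. The first pair depended on the scaling, at 7002 and 7609 under cyclic loess and 8536 and 6075 with arrays centred on genes of a span like that of the 4 members. The first pair also moved with the level filter. Above the 60th percentile it was 2640 and 7457 of 10097 genes (median -0.09). With no level filter it was 9471 and 12709 of 22180 genes (median -0.02). A list has to be read against those counts, and 0 genes of any list were called. Lists were not compared with genes of like signal.

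Of 9 tested PBX, MEIS, PREP and TGIF homeodomain genes, the family of Pknox1 and its partners, 3 were higher and 6 lower in Pre-miR-223 cells (median -0.05), and 5 were higher and 4 lower in Anti-miR-223 cells (median 0.00, or 0.01 without replicate 4). Under cyclic loess 4 of the 9 were lower in Pre-miR-223 cells. Pbx3, a PREP1 partner, had 3.58, 3.86, 3.61 and 3.54 in Pre-miR-223 cells, against 4.26, 4.43, 3.76 and 3.90 in Scramble cells. Its difference was -0.44 (-0.77 to -0.11), with a limma adjusted p of 0.921, and 0.00 in Anti-miR-223 cells, or -0.09 without replicate 4. Pbx2 differed by -0.12 and 0.23 and the corepressor gene Tgif1 by -0.03 and -0.07 in Pre-miR-223 and Anti-miR-223 cells. Without replicate 4 the Anti-miR-223 values were 0.30 and 0.01.

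Of 23 tested Ras GTPases, exchange factors and GTPase-activating proteins, 7 were higher and 16 lower in Pre-miR-223 cells (median -0.04), but 10 were lower under cyclic loess. In Anti-miR-223 cells 11 were higher and 12 lower (median -0.02), and 2 higher and 21 lower (median -0.15) without replicate 4. Rras2, an R-Ras family GTPase, had 5.50, 5.77, 5.63 and 5.54 in Anti-miR-223 cells, against 5.88, 5.96, 5.93 and 5.88 in Scramble cells, groups that did not overlap. That held for 1 of the 23 genes in this comparison, against 1.55% of all genes tested. Without Anti-miR-223 replicate 4 it held for 4 of the 23, all lower, against 6.55% of all genes tested. Rras2 had the smallest p of the list in Anti-miR-223 cells, with limma adjusted p 0.99997. It differed by -0.30 (-0.51 to -0.09) there, or -0.28 without replicate 4, and by 0.01 in Pre-miR-223 cells. The other RasGAP genes Rasa2 and Nf1 differed by 0.00 and -0.03 in Pre-miR-223 cells and by -0.22 and -0.15 in Anti-miR-223 cells, the last 2 being -0.39 and -0.33 without replicate 4. The adaptor gene Dok3 differed by -0.34 (-0.68 to 0.00) and -0.02, the second being -0.15 without replicate 4.

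Of 10 tested genes of the NFAT family and calcineurin, 1 was higher and 9 lower in Pre-miR-223 cells (median -0.08), with 3 lower under cyclic loess. In Anti-miR-223 cells 3 were higher and 7 lower (median -0.02), and 1 was higher and 9 lower (median -0.12) without replicate 4. Nfatc1, Nfatc2, Nfatc3 and Nfatc4, the calcium-regulated relatives of Nfat5, differed by -0.22, -0.23, -0.04 and -0.12 in Pre-miR-223 cells and by -0.13, -0.00, 0.12 and 0.18 in Anti-miR-223 cells. Without replicate 4 the Anti-miR-223 values were -0.21, -0.03, -0.15 and 0.21, so the sign of Nfatc3 turned. Rcan1, a calcineurin regulator, differed by -0.08 and -0.02, the second being -0.09 without that array.

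All 9 tested osmotic stress targets of NFAT5 had a lower mean in Pre-miR-223 cells (median -0.18). That count was 6 of 9 under cyclic loess and under repeated quantile normalisation, and 5 of 9 with arrays centred on genes of similar span. In Anti-miR-223 cells 5 were higher and 4 lower (median 0.01), and 2 higher and 7 lower (median -0.11) without replicate 4. The betaine transporter gene Slc6a12 had 7.73, 7.80, 7.54 and 7.12 in Pre-miR-223 cells, against 8.39, 7.90, 7.75 and 7.61 in Scramble cells, a difference of -0.36 (-0.80 to 0.07). It differed by 0.01 in Anti-miR-223 cells, and by -0.15 without replicate 4. The taurine transporter gene Slc6a6 differed by -0.05 and 0.13 in Pre-miR-223 and Anti-miR-223 cells, and S100a4, a calcium-binding protein gene, by -0.21 and -0.26. Without replicate 4 the Anti-miR-223 values were -0.05 and -0.14, so the sign of Slc6a6 turned.

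Of 17 tested PPAR and RXR receptors with their cofactors, 5 were higher and 12 lower in Pre-miR-223 cells (median -0.10), with 10 lower under cyclic loess. In Anti-miR-223 cells 9 were higher and 8 lower (median 0.04), and 2 higher and 15 lower (median -0.16) without replicate 4. Rxra, which pairs with PPARG on DNA, differed by -0.00 and 0.09, Ppard by -0.20 and 0.06, and the deacetylase gene Hdac3 by -0.26 and -0.10 in Pre-miR-223 and Anti-miR-223 cells. Without replicate 4 the Anti-miR-223 values were -0.07 for Rxra and -0.24 for Ppard, both of turned sign, and -0.11 for Hdac3.

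Of 16 tested PPARG target genes, 3 were higher and 13 lower in Pre-miR-223 cells (median -0.09), with 7 lower under cyclic loess. In Anti-miR-223 cells 7 were higher and 9 lower (median -0.03), and 4 higher and 12 lower (median -0.10) without replicate 4. The scavenger receptor gene Cd36 differed by -0.01 and -0.10, the lipid droplet gene Plin2 by -0.28 and 0.05, and the lipase gene Lpl by -0.09 and -0.04 in Pre-miR-223 and Anti-miR-223 cells. The oxysterol receptor gene Nr1h3 differed by -0.11 and 0.20, and the cholesterol exporter gene Abca1 by -0.00 and -0.04. Without replicate 4 the Anti-miR-223 differences were -0.20 for Cd36, -0.08 for Plin2, whose sign turned, -0.18 for Lpl, 0.14 for Nr1h3 and -0.15 for Abca1.

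**Figure D5:**
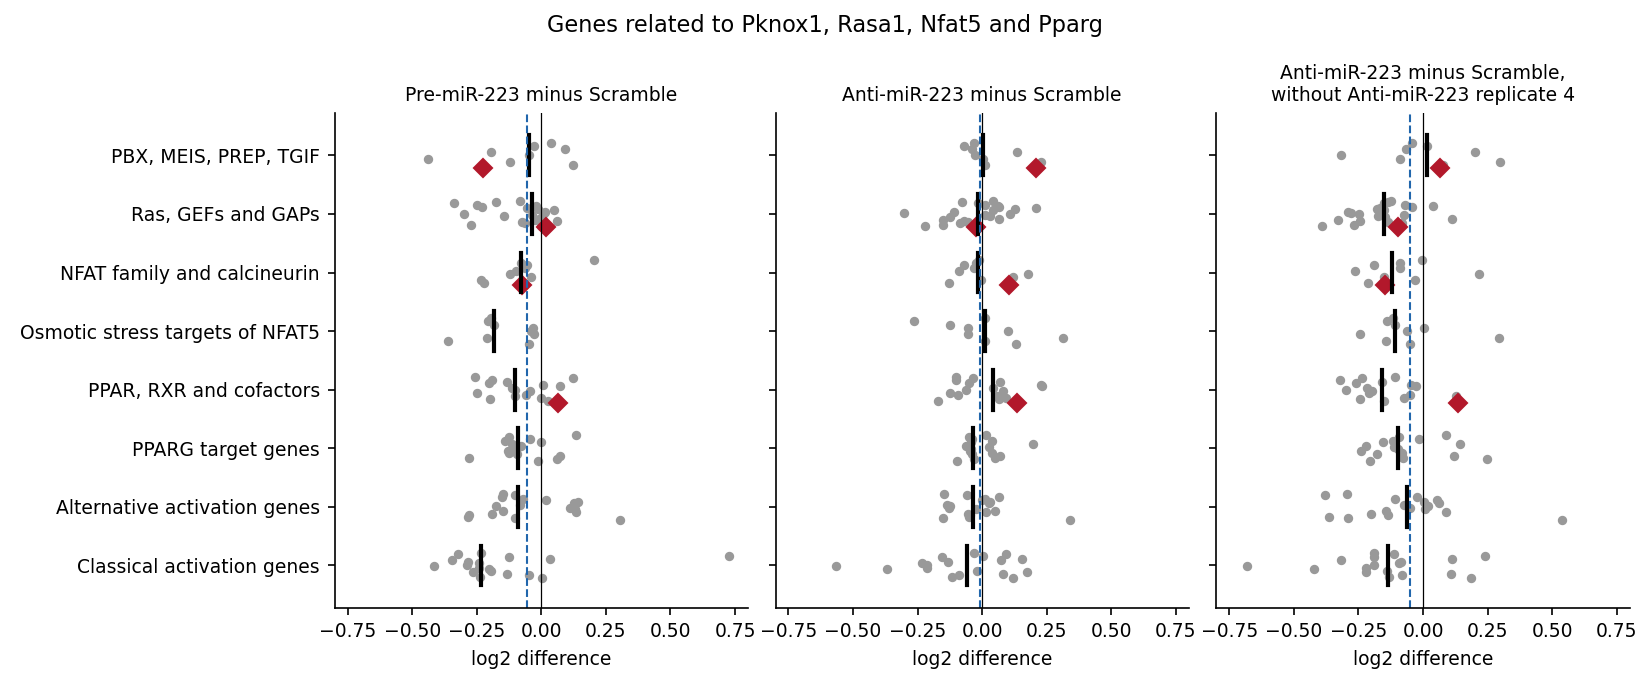
Log2 differences of single genes (points) in the 8 lists of pathway and activation genes, with Pknox1, Rasa1, Nfat5 and Pparg as red diamonds, list medians as black bars and the median of all genes tested as a dashed line. Several list medians shift left between the middle and right panels, where Anti-miR-223 replicate 4 is left out.

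Activation genes, on which miR-223 and Pparg are reported to act, were read in the same way. Of 18 tested alternative activation genes, 7 were higher and 11 lower in each treatment against Scramble (medians -0.09 for Pre-miR-223 and -0.04 for Anti-miR-223, or -0.06 without replicate 4). Arg1, the arginase of alternatively activated macrophages, had 2.32, 2.39, 2.40 and 2.72 in Pre-miR-223 cells, 2.60, 2.67, 2.81 and 1.89 in Anti-miR-223 cells, and 2.16, 2.20, 2.05 and 2.20 in Scramble cells. Its differences from Scramble were 0.30 (-0.06 to 0.66) and 0.34 (-0.02 to 0.70), the second being 0.54 (0.30 to 0.78) without Anti-miR-223 replicate 4. In that last setting no gene of the list had a limma adjusted p under 0.525. Arg1 lay near the level filter of log2 2.01. The interleukin-4 receptor gene Il4ra differed by -0.28 and -0.05, its signal transducer Stat6 by -0.19 and -0.05, and Klf4 by 0.13 and 0.02. The Anti-miR-223 values were -0.13, -0.20 and 0.09 without that array.

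Of 18 tested classical activation genes, 3 were higher and 15 lower in Pre-miR-223 cells (median -0.24), and 16 were lower under cyclic loess (median -0.14). In Anti-miR-223 cells 7 were higher and 11 lower (median -0.06), and 4 higher and 14 lower (median -0.14) without replicate 4. Socs3, a cytokine signalling inhibitor, had 5.14, 4.04, 4.66 and 5.32 in Pre-miR-223 cells, against 3.80, 3.87, 4.36 and 4.24 in Scramble cells, a difference of 0.73 (0.11 to 1.35). In Anti-miR-223 cells it differed by 0.00, and by 0.24 without replicate 4. The chemokine gene Ccl2 differed by -0.42 in Pre-miR-223 cells and by -0.57 (-0.99 to -0.15) in Anti-miR-223 cells, or -0.68 (-1.08 to -0.28) without replicate 4. Tnf differed by -0.24 and -0.12, Il1b by -0.05 and -0.09, and the nitric oxide synthase gene Nos2 by 0.00 and 0.12. The Anti-miR-223 values were -0.13, -0.08 and 0.19 without that array. The lowest limma adjusted p of this list was 0.921 in Pre-miR-223 cells and 0.99997 in Anti-miR-223 cells, or 0.712 in the latter without that array.

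Markers of the cell type were measured beside these lists. All 12 macrophage markers were tested, with array means of 7.85 to 8.20 in Pre-miR-223 cells, 7.90 to 8.42 in Anti-miR-223 cells and 8.06 to 8.28 in Scramble cells. In Pre-miR-223 cells 10 of the 12 were lower (median -0.22), with 8 lower under cyclic loess, and in Anti-miR-223 cells 8 were lower (median -0.04), or 10 (median -0.14) without replicate 4. No marker had a limma adjusted p under 0.92 in Pre-miR-223 cells, and nor did any other gene tested. Without Anti-miR-223 replicate 4 the lowest was 0.521, for the markers and for all genes. An unadjusted limma p under 0.05 was seen for 1 of the 12 markers, and for 5 without that array. Over all 14611 genes those counts were 711 and 1371. Cd68 differed by -0.34 (-0.63 to -0.05) and -0.06, and Cx3cr1 by -0.24 and -0.16. The Anti-miR-223 values were -0.15 and -0.25 without that array. The part of this shift in the activation lists was not tested. In bulk RNA of 1 cell line, fewer cells expressing a marker and less of its RNA per cell cannot be told apart.

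Markers of other cells were read against the level filter. Of the listed genes, 6 of 10 adipocyte, 5 of 9 fibroblast, 3 of 11 T and B cell and 4 of 9 neutrophil markers passed it, and Lep, Dcn, Cd3g and S100a8 did not. In Pre-miR-223, Anti-miR-223 and Scramble cells the array means of tested markers reached at most 2.57, 2.60 and 2.58 for adipocytes, 2.37, 2.26 and 2.35 for fibroblasts, 2.11, 2.30 and 2.21 for T and B cells, and 2.31, 2.36 and 2.33 for neutrophils. In Pre-miR-223 and Anti-miR-223 cells, Cidea differed by 0.11 and -0.05, Pck1 by 0.12 and -0.15, Col1a2 by 0.18 and 0.03, Thy1 by 0.06 and 0.20, Cd8a by -0.17 and 0.03, Cd3d by 0.03 and 0.10 and Elane by -0.17 and -0.18. Without replicate 4 the Anti-miR-223 values were -0.01, -0.19, 0.04, 0.27, 0.05, 0.15 and -0.15 in that order.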

How the data were processed

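The authors deposited 1 table of log2 signals for 41345 transcript clusters on 12 arrays. Expression Console (Affymetrix), Partek and RMA are listed, per the submitters' processing notes, without versions or roles. The log base and genome build are not given in the sources used here, base 2 was taken, and no gene coordinates are printed. RMA equalises the arrays, so a change in total RNA would not show. Per the labels, RNA came from a miRNeasy extraction and was labelled with WT PLUS reagents.

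Clusters with 1 symbol were used, the brightest per gene, if their mean passed the 40th percentile of all clusters (log2 2.01), leaving 14611 genes. The test was limma 3.58.1 (R 4.3.3), 1 model of 12 arrays with 9 residual degrees of freedom, 2-sided, Benjamini-Hochberg adjusted. The procedure was tested on simulated data with independent normal noise and no outlying array. That test therefore does not cover an array like Anti-miR-223 replicate 4. Correlations used 100000 permutations (scipy 1.17.1). Precision is limited by the number of arrays.

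The members, the 13 lists (147 genes tested, 39 below the filter, 21 without a cluster of 1 symbol) and the rules were chosen with earlier results of these data known. Genes named were the members, a fixed set of 30 names of which 23 were tested, the smallest p of each list in each comparison with Scramble, and the 3 closest genes of each member. Alternatives were other scalings, filters, models, a replicate block and arrays left out. Same-numbered arrays did not deviate together as a rule, but Rasa1 and Cd36 were lowest on replicate 1 in every group.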

Additional observations from a re-analysis of the deposited data

Results flagged for a closer look

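Nfat5 on Anti-miR-223 replicate 4 had a log2 signal of 8.26, far from the other Anti-miR-223 arrays, which had 7.21, 7.18 and 7.33. Its gap to the nearest of them was 0.866 of the group's whole range, above Dixon's 95% critical value for 4 samples. That array stood apart over many genes, and the cause was not tested.

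The same comparison over 56 named genes, in 168 groups of 4 arrays, set 1 array apart in 11 groups, and chance gives about 1 in 20. On Anti-miR-223 replicate 4 these included Spcs3 (8.48) and Xpr1 (6.90), 2 genes named for following Nfat5. On other arrays they were Pbx2 (3.72) and Cd3d (2.55) on Anti-miR-223 replicate 3, Nfatc4 (2.88) on Anti-miR-223 replicate 1, Klf4 (5.08) and Slc6a6 (8.65) on Pre-miR-223 replicate 2, Cd3d (2.32) on Pre-miR-223 replicate 1, and Ccl2 (5.06) and Marchf8 (4.82) on Scramble replicate 1. All had signals above the rest of their group, except Ccl2 and Marchf8, which lay below it.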

How the results depend on the processing

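No gene was called under any of the 24 alternatives of each comparison. The lowest limma adjusted p was 0.242, 0.194 and 0.113 for Pre-miR-223 over Scramble, Anti-miR-223 over Scramble and Pre-miR-223 over Anti-miR-223. Genes at an unadjusted p under 0.05 depended on the arrays used: for Pre-miR-223 over Scramble leaving out Pre-miR-223 replicate 2 gave 1510 and leaving out replicate 4 of that group gave 314, against 711 on all arrays. For Anti-miR-223 over Scramble there were 978 without Anti-miR-223 replicate 4, against 294. For Pre-miR-223 over Anti-miR-223 the same 2 omissions gave 1147 and 280, against 528. With the replicate number as a block these counts were 547, 248 and 408, and 0 genes were called. Every group holds each number, so the block cannot change a group difference. For Pknox1 in Pre-miR-223 over Scramble that value was -0.23 by design. Taken over genes, the numbers did not pair the arrays as a rule. Same-numbered deviations correlated between -0.503 and 0.393, over 0.1 in 4 of 12 pairs, and 2 of 12 arrays correlated best with their own number. Single genes could still follow the numbers, as Rasa1 and Cd36 were lowest on replicate 1 in every group.

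Of 297 alternative values of the 4 members, 282 kept their direction, 15 turned and 0 were called. Pparg lay below the 60th percentile filter, so that setting gave no value for it. Of 1862 alternative values of the other named genes against Scramble, 137 turned and 0 were called. Many of the alternatives in these counts could not turn a group difference. A change of level filter, of model or test, or a replicate block leaves that difference as it was. So does leaving out an array of a group outside the comparison. The counts of kept directions therefore do not measure stability, which only the other scalings and the omission of compared arrays could test. The correlation of Pknox1 with Rasa1 was -0.269 without Anti-miR-223 replicate 4. Pknox1 kept its direction with any array left out, between -0.29 and -0.12 for Pre-miR-223 over Scramble, 0.07 and 0.32 for Anti-miR-223 over Scramble, and -0.54 and -0.29 for Pre-miR-223 over Anti-miR-223. The cause of the turned values was not tested.

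Under cyclic loess, the sign turned for Pre-miR-223 over Scramble in Nfat5 (0.040), Tgif1 (0.067), Nf1 (0.071), Nfatc3 (0.066), Rcan1 (0.018), Slc6a6 (0.071), Rxra (0.051), Cd36 (0.10), Lpl (0.023), Abca1 (0.097) and Nos2 (-0.015) and for Anti-miR-223 over Scramble in Rasa1 (0.0094), Lpl (0.0081), Dok3 (0.011) and Nfatc2 (0.018). Under repeated quantile normalisation, the sign turned for Pre-miR-223 over Scramble in Tgif1 (0.033), Nf1 (0.039), Nfatc3 (0.024), Slc6a6 (0.0079), Rxra (0.010), Cd36 (0.054), Lpl (0.014), Abca1 (0.061) and Nos2 (-0.019) and for Anti-miR-223 over Scramble in Rasa1 (0.0016), Lpl (0.029), Dok3 (0.013) and Nfatc2 (0.0039). With arrays centred on genes spanning as many bases as the members, chosen after seeing the data, the sign turned for Pre-miR-223 over Scramble in Nfat5 (0.0087), Tgif1 (0.055), Nf1 (0.058), Nfatc3 (0.045), Rcan1 (0.0061), Slc6a6 (0.038), Rxra (0.083), Cd36 (0.072), Abca1 (0.083) and Il1b (0.037) and for Anti-miR-223 over Scramble in Socs3 (-0.00062) and for Pre-miR-223 over Anti-miR-223 in Pparg (0.017). With arrays centred on their median, the sign turned for Pre-miR-223 over Scramble in Rasa2 (-0.015), Nos2 (-0.011) and Rras2 (-0.0044). With arrays left out, Pre-miR-223 over Scramble ranged over -0.019 to 0.047 for Rasa1, -0.26 to 0.0033 for Pbx2, -0.094 to 0.081 for Tgif1, -0.10 to 0.099 for Nf1, -0.066 to 0.039 for Rasa2, -0.087 to 0.023 for Nfatc3, -0.15 to 0.0045 for Rcan1, -0.080 to 0.087 for Rxra, -0.15 to 0.11 for Cd36, -0.21 to 0.011 for Nr1h3, -0.029 to 0.024 for Abca1, -0.039 to 0.062 for Nos2, -0.11 to 0.0054 for Il1b, -0.017 to 0.072 for Rras2 and -0.038 to 0.061 for Cd3d. With arrays left out, Anti-miR-223 over Scramble ranged over -0.11 to 0.023 for Rasa1, -0.15 to 0.21 for Nfat5, -0.11 to 0.12 for Pbx3, -0.11 to 0.054 for Tgif1, -0.15 to 0.27 for Nfatc3, -0.097 to 0.080 for Rcan1, -0.050 to 0.23 for Slc6a6, -0.074 to 0.18 for Rxra, -0.24 to 0.24 for Ppard, -0.23 to 0.010 for Cd36, -0.077 to 0.14 for Plin2, -0.18 to 0.054 for Lpl, -0.15 to 0.026 for Abca1, -0.16 to 0.026 for Il4ra, -0.20 to 0.031 for Stat6, -0.12 to 0.15 for Klf4, -0.15 to 0.073 for Dok3, -0.033 to 0.025 for Nfatc2, -0.15 to 0.17 for Slc6a12, -0.18 to 0.24 for Socs3, -0.15 to 0.0086 for Cd68, -0.11 to 0.013 for Cidea, -0.028 to 0.080 for Col1a2, -0.042 to 0.15 for Cd8a and -0.026 to 0.15 for Cd3d. With arrays left out, Pre-miR-223 over Anti-miR-223 ranged over -0.0048 to 0.11 for Rasa1 and -0.29 to 0.072 for Nfat5.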
